A study of Homo sapiens and Mus musculus with 22 samples.

Results

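Voltage-gated ion channel genes were taken as the symbols that begin with KCN, CACN or SCN and a digit (Kcn, Cacn and Scn and a digit in mouse) and that had at least 10 counts in at least 2 libraries of a table of read counts per gene. The rule found 99 of 154 matching symbols in the table of the H69 and H69M libraries, 96 of 135 in the table of the H69EZ libraries and 91 of 137 in the mouse table, which are 286 of the 69595 genes listed over the 3 tables. They are 118 different genes, of which 86 were members in both human tables and 68 in all 3 tables. By class there were 72, 70 and 59 potassium channel symbols, 14, 19 and 21 calcium channel symbols and 9, 7 and 10 sodium channel symbols in the 3 tables. The H69 table added 4 symbols that are not channel proteins (KCNQ1OT1, KCNJ2-AS1, KCNQ5-IT1 and KCNRG) and the mouse table added 1 (Kcnq1ot1). The prefix is wider than its name: 46, 44 and 47 members encode a pore protein with a voltage sensor, and the rest are auxiliary subunits, inward rectifiers, background channels or channels opened by calcium or sodium.

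The rule read the counts themselves. Just outside it in the H69 table lay SCN3A and CACNG5, with a second-highest count of 8, and CACNB2 and KCNA5 with 7; just inside lay KCNQ5-IT1, KCNRG, KCNT1 and SCN7A with 10. In the H69EZ table KCNE1, KCNK10, KCNMB1 and KCNU1 stopped at 9 and CACNA2D4 entered with 10. In the mouse table Cacng8, Kcna6, Kcnj4 and Kcnrg stopped at 9 and Kcnj5 entered with 10. A member that reached 10 counts in the libraries of 1 group alone was made likely by the rule to differ between groups. There were 12 such members in the H69 table, 17 in the H69EZ table and 58 in the mouse table, 51 of them through RPP. Folds and p-values given below for such members carry this limit, also where it is not repeated.

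Voltage-gated channels open when the membrane depolarises. Sodium channels carry the upstroke of an action potential, calcium channels let in the calcium that releases vesicles and granules, and delayed-rectifier potassium channels repolarise the membrane. Neuroendocrine cells, the lineage that small cell lung cancer resembles, are electrically excitable and secrete in response to calcium entry. Other potassium channels work apart from spikes: inward rectifiers and K2P background channels set the resting potential, and calcium-activated channels couple internal calcium to potassium efflux. Fibroblasts, smooth muscle and lymphocytes use several of these.

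RNA sequencing compared small cell lung cancer (SCLC) cells with high and low MHC class I, the surface complex that shows peptides to cytotoxic T cells. H69M, a derivative of the human line NCI-H69, was sequenced after sorting into fractions high in the checkpoint ligand PD-L1 (3 libraries, MHC class I high) and low in it (3, MHC class I low), unsorted (3, MHC class I high), and beside parental H69 (3, MHC class I low). H69EZ came from H69 by 6 days with an EZH2 inhibitor, an agent against the enzyme that writes repressive histone H3K27 methylation, then drug-free culture and selection for adherence, and was sorted into HLA-ABC high (2 libraries) and HLA-ABC low (2) fractions. The mouse lines were RPP-A (3 libraries, MHC class I high), selected from RPP for adherent growth, and RPP (3, MHC class I low). H69M with its fractions and both H69EZ fractions descend from 1 line, and both H69EZ fractions share the drug exposure, so no group separates that exposure from the adherent selection. The mouse comparison is 1 derived line against 1 parent. Whether replicates came from separate cultures is not stated in the labels. The p-values therefore cover the library-to-library spread, which may be technical. PD-L1 high and low, HLA high and low are used below for the sorted fractions.

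Libraries held 10817795 to 52458228 counts. Levels are CPM, the count of a gene relative to its library total after scaling by TMM, a between-library normalisation, and libraries are listed in replicate order for the human groups, as RPPM1, RPPM2 and RPPM3 for RPP-A and as EHK_RPP4, RPP1 and RPP2 for RPP. Of the mouse libraries, RPPM3 and EHK_RPP4 stood apart from the others of their groups (36.3 to 39.3 and 29.7 to 33.4 times the variance of counting between library pairs, on average over genes), while RPPM1 and RPPM2 differed by only 1.35 times it. In the human groups this ratio ran from 2.28 to 10.9. The summed level of 7 neuroendocrine markers (NEUROD1, INSM1, CHGA, SYP, NCAM1, UCHL1, ENO2) was 1394 to 1439 CPM in PD-L1 high, 3999 to 4192 in PD-L1 low, 3104 to 3129 in H69M and 3173 to 3311 in H69. It was 827 to 863 CPM in HLA high, against 2402 to 2421 CPM in HLA low, and 169.9 to 212 CPM in RPP-A, against 1589.5 to 1917 CPM in RPP. NEUROD1 had no count in PD-L1 high. The 10 mesenchymal markers summed to 14640.5 to 15005, 279 to 410.2, 3522 to 3783 and 147 to 149.9 CPM in PD-L1 high, PD-L1 low, H69M and H69. They summed to 17677 to 19140 CPM in HLA high, against 103 to 106 in HLA low, and to 28913 to 37430 CPM in RPP-A, against 118 to 621 in RPP. Of the 8 leukocyte markers CD3E had no count in any group and Ptprc none in RPP-A. Their sum was 10.7 to 11.5 CPM in PD-L1 high, 2.05 to 2.61 in PD-L1 low, 4.89 to 5.03 in H69M and 3.47 to 4.22 in H69. It was 7.11 to 7.99 CPM in HLA high, against 4.99 to 5.53 CPM in HLA low, and 34.9 to 38.8 CPM in RPP-A, against 2.53 to 3.18 CPM in RPP. Of those tested, 3 of 4 were called higher in PD-L1 high than in PD-L1 low, 3 of 4 in HLA high and 2 of 3 in RPP-A. Endothelial markers summed to 5.68 to 6.05 CPM in PD-L1 high, against 0.93 to 1.37 CPM in PD-L1 low, and to 1.67 to 1.94 CPM in HLA high, against 0.116 to 0.178 CPM in HLA low. They summed to 2.12 to 3.33 CPM in RPP-A, against 39.4 to 46.8 CPM in RPP. All 10 mesenchymal markers were called higher in each of the 6 comparisons. The part of these marker differences in the channel results was not tested. In bulk RNA, fewer cells that express a channel and less of its RNA per cell cannot be told apart.

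Channel RNA summed over genes was lower in PD-L1 high, HLA high and RPP-A than in their counterparts. Potassium channel genes summed to 615 ± 15.8 CPM in PD-L1 high, 1429 ± 19.7 CPM in PD-L1 low, 1125 ± 32.2 CPM in H69M and 1382 ± 30.4 CPM in H69 (mean ± SD, n = 3 each). The sum was 500.1 ± 3.78 CPM in HLA high, against 1543 ± 28.4 CPM in HLA low (n = 2 each), and 200.4 ± 3.62 CPM in RPP-A, against 1029.8 ± 31.7 CPM in RPP (n = 3 each). No library of PD-L1 high, HLA high or RPP-A reached the lowest library of its counterpart. Calcium channel genes summed to 329 ± 9.25 CPM in PD-L1 high, 627 ± 19.8 in PD-L1 low, 448 ± 22.1 in H69M and 838 ± 38.4 in H69. They summed to 293 ± 3.21 CPM in HLA high, against 485 ± 5.27 CPM in HLA low, and to 535 ± 12.99 CPM in RPP-A, against 832 ± 11.7 CPM in RPP. Sodium channel genes summed to 129.7 ± 6.41, 249 ± 8.15, 200.1 ± 6.49 and 209 ± 19.3 CPM in PD-L1 high, PD-L1 low, H69M and H69, to 107 ± 6.599 CPM in HLA high, against 143 ± 2.305 CPM in HLA low, and to 18.1 ± 2.09 CPM in RPP-A, against 218 ± 13.95 CPM in RPP. These sums carry no test and are led by the most abundant members, such as KCNA1 in the human tables.

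**Figure D1:**
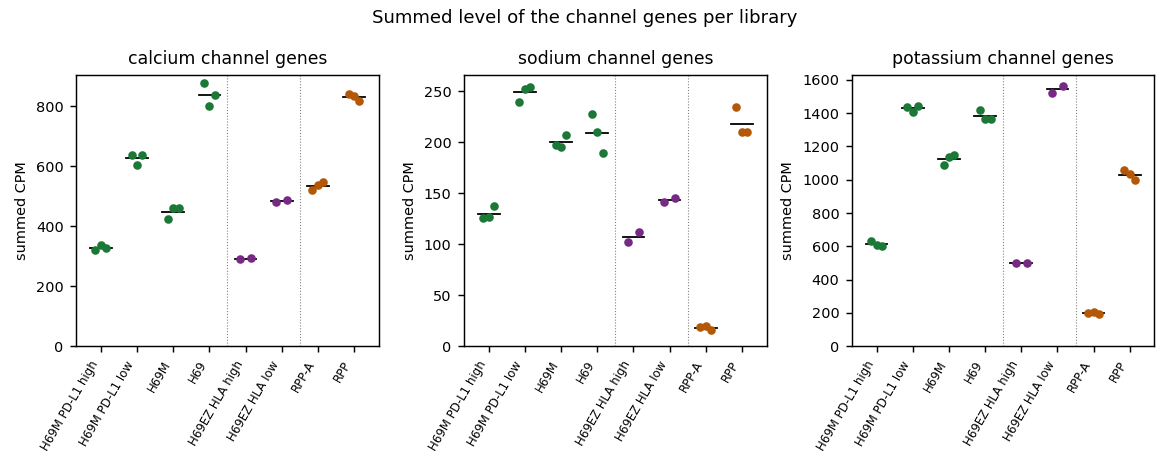
Summed CPM of the calcium, sodium and potassium channel genes in each library, one panel per class, with libraries as points and the mean of each of the 8 groups as a line. The PD-L1 high, HLA high and RPP-A libraries lie below those of PD-L1 low, HLA low and RPP in all 3 panels, for instance with means of 18.1 ± 2.09 CPM in RPP-A, against 218 ± 13.95 CPM in RPP (SD, n = 3 each), for the sodium channel genes.

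Sorting H69M by PD-L1 addresses how an MHC class I high fraction of a line differs from an MHC class I low fraction. In PD-L1 high, 64 of 92 tested channel genes were lower and 18 higher than in PD-L1 low by edgeR's quasi-likelihood test with a Benjamini-Hochberg adjusted p under 0.05 over all 15445 genes tested. Over all genes, 39.4% were called lower and 39% higher. In all 82 channel genes (89.1%) were called, against 78.3% of all genes. For 82 (89.1%) the libraries of the groups did not overlap, against 80.1% of all genes. The median log2 fold change was -1.35 over the channel genes and close to 0 over all genes. Of the genes for a voltage-sensing pore, 36 of 44 were lower and 3 higher (CACNA1C, KCND1 and KCNH1), whereas of the other channel genes 28 of 48 were lower and 15 higher. All tested members of the delayed-rectifier family Kv1 (4) and all 3 Cav2 calcium channel pores were among the lower genes. Among genes that reached 5 CPM in a group compared, the 8 largest rises were KCNMB1, KCNE4, KCNK1, KCNN4, KCNJ8, KCND1, KCNH1 and CACNA1C. The 8 largest falls included SCN3B, CACNA2D3, KCNA6, KCNQ3, KCNN1, KCNJ11 and KCNG1.

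The HLA sort of H69EZ addresses the same question in other libraries. In HLA high, 63 of 94 tested channel genes were lower and 22 higher than in HLA low, against 40.2% lower and 41.1% higher over all 14819 genes tested (edgeR, Benjamini-Hochberg). Calls in either direction were made for 85 of them (90.4%), against 81.3% of all genes. Libraries of the groups did not overlap for 87 (92.6%), against 90.2% of all genes. The median log2 fold change was -1.26 over the channel genes. Of the voltage-sensing pores 34 of 44 were lower and 8 higher. Every tested member of Kv1 (5) and Cav2 (3) was lower, and 5 of 9 K2P background channels were higher. The largest rises were KCNJ15, KCNJ8, KCNE4, CACNA2D3, KCNK1, KCNK6, CACNA1G and KCNH1, and the largest falls included KCNA1, KCNS3, KCNIP3, KCNN1 and KCNJ11. Of these, KCNJ15, KCNJ8 and KCNE4 met the member rule through HLA high alone. This table has 2 libraries a group, and its spread was pooled wholly across genes, so its p-values rest on that pooling.

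RPP-A against RPP addresses it in a mouse line and its adherent derivative. In RPP-A, 71 of 88 tested channel genes were lower and 11 higher than in RPP, against 40.6% lower and 37.6% higher over all 14032 genes tested (edgeR, Benjamini-Hochberg). In all 82 channel genes (93.2%) were called, against 78.2% of all genes. For 83 (94.3%) the libraries of the groups did not overlap, against 82.3% of all genes. The median log2 fold change was -5.69 over the channel genes, or -5.47 with genes at 0 in a group set to their bound, and -0.04 over all genes. As 51 of the members entered through RPP alone, the count and median are partly fixed by the rule. The genes with a voltage-sensing pore were lower for 39 of 46 and higher for 4. All 8 KCNH genes, all 6 K2P genes and all 4 alpha2delta subunits tested were lower, and most of each family were members through RPP alone. The largest falls on the same terms were Kcnc4, Kcnk16, Cacna2d4, Kcnh8, Kcnq1, Kcnip2, Scn8a and Kcnk1. The largest rises included Kcnj2, Kcnma1, Kcnab1, Kcnn4, Kcnd1, Cacnb3 and Cacna1a. Of these, Kcnj2, Kcnma1 and Kcnab1 met the member rule through RPP-A alone. Without TMM, library totals moved the median of all genes by -0.36, and 9 channel genes were higher and 74 lower.

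**Figure D2:**
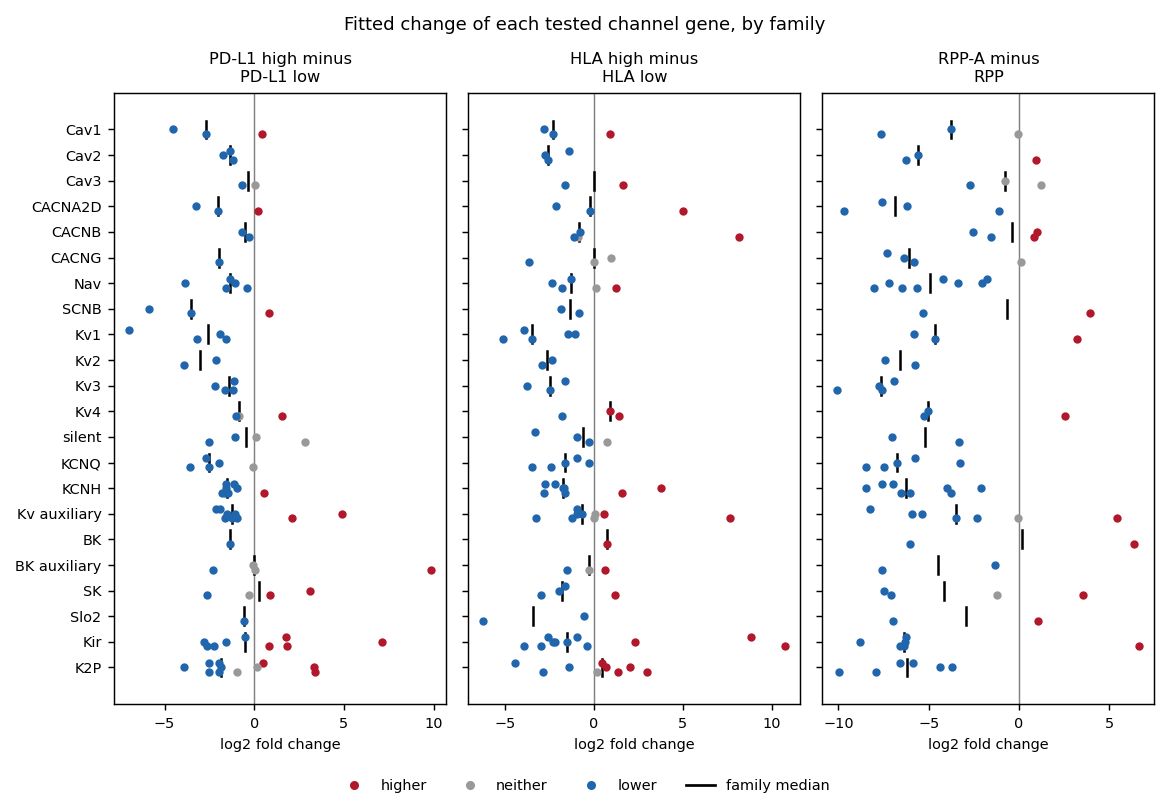
Fitted log2 fold change of each tested channel gene (points) by family, with the family median as a line, for PD-L1 high minus PD-L1 low, HLA high minus HLA low and RPP-A minus RPP. Kv1, Kv3 and KCNQ medians lie below 0 in all 3 panels, and K2P and Kv4 medians lie above 0 in the HLA sort alone.

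The 3 sorts and lines share no library, although H69M and H69EZ share a parent. Among 65 channel genes tested in all 3 tables, 34 (52.3%) were lower in PD-L1 high, in HLA high and in RPP-A, and over all 11213 genes tested in all 3 the share was 14.6%. Of these 34 genes, 26 met the member rule in mouse through RPP alone, as did 38 of the 65. Their lower level in RPP-A was thus largely fixed by the rule, and the count is given as a description. Only KCND1, KCNJ2 and KCNN4 were higher in all 3 (4.62%, against 16.9% of all genes). Among the 34 were CACNA1B, CACNA1D, CACNA1E, CACNA1F and CACNA1H of the calcium channel pores, SCN1A and SCN8A of the sodium channel pores, and KCNA3, KCNB2, KCNC1, KCNC4 and KCND2 of the Kv pores. They also held KCNQ1 and KCNQ3, 6 KCNH genes (KCNH2, KCNH3, KCNH4, KCNH6, KCNH7 and KCNH8), the inward rectifiers KCNJ3, KCNJ6 and KCNJ11, KCNK3, and the auxiliary genes CACNA2D2, SCN3B, KCNAB3, KCNIP3 and KCNMB2. Another 18 genes (27.7%, against 34.7% of all genes) were called in opposite directions in at least 1 pair of tables. KCNH1 and KCNK1 were higher in both human sorts and lower in RPP-A, where both met the member rule through RPP alone. CACNA1A, CACNB1, CACNB3 and KCNT2 were lower in both human sorts and higher in RPP-A.

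**Figure D3:**
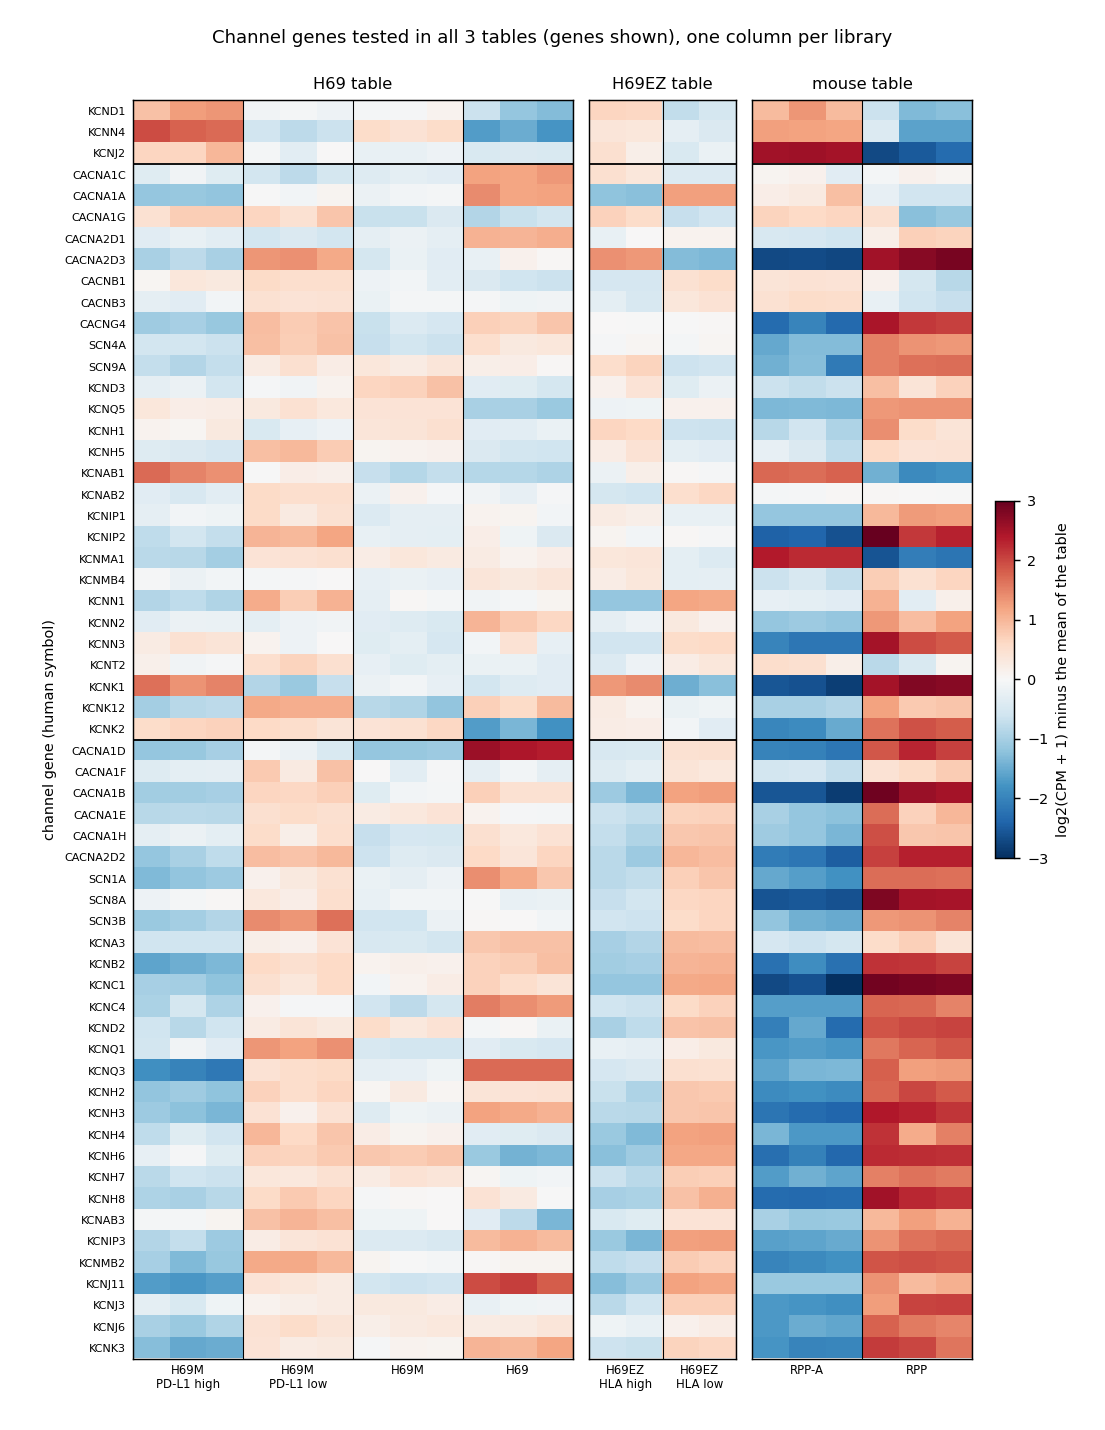
log2(CPM + 1) minus the table mean for 59 of the channel genes tested in all 3 tables, one row per gene and one column per library. Rows are grouped as higher in all 3 (3 genes), mixed, and lower in all 3 (29 genes shown) of the MHC class I high fractions and line, and colour runs from below to above the mean of that table.

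Promoter sequence is shown for 4 human genes, as examples of members called the same way in all 3 pairs of groups. RefSeq windows on GRCh38.p14 held the bases before the transcript start of 75 of 109 human members. A gene with several windows was counted by the window with most CG dinucleotides in the 250 bases upstream of the start. Among the 34 genes lower in all 3, 20 had a window, and these held a median of 28 CG dinucleotides (2 to 45). Of the 3 genes higher in all 3, KCNJ2 held 32, KCND1 8 and KCNN4 5. The median was 19 in the 52 other human members with a window and 12 over all 27305 genes with a window, counted in the same way. KCNC1 (chr11:17734531-17734780, plus strand) and SCN8A (chr12:51590983-51591232, plus strand) are shown as genes lower in all 3, and KCND1 (chrX:48971845-48972094, minus strand) and KCNN4 (chr19:43780974-43781223, minus strand) as genes higher in all 3. The window of KCNC1 is the richer of 2, and the other held 18 CG. Capitals mark CG, and each runs 5′ to 3′ and ends at the base before the start.
KCNC1: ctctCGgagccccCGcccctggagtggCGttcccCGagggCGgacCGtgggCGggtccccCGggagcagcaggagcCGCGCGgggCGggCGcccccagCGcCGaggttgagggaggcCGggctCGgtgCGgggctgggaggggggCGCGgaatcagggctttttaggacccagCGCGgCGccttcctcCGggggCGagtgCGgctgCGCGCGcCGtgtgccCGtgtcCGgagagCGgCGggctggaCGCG
SCN8A: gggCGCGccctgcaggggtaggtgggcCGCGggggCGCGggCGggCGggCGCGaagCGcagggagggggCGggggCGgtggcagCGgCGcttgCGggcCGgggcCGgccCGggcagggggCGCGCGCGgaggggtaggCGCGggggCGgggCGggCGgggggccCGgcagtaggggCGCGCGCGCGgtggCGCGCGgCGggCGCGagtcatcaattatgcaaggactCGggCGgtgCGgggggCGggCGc
KCND1: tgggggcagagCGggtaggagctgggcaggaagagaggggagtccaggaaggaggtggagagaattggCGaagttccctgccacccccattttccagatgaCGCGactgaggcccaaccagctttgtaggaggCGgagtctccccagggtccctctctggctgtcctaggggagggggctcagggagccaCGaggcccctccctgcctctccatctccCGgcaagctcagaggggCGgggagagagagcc
KCNN4: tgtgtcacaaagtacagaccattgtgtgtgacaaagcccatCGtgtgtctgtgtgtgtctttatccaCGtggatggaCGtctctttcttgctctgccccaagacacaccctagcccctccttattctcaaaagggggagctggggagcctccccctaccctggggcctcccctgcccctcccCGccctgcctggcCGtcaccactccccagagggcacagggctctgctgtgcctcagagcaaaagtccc

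In these letters KCNC1 held 36 and SCN8A 45 CG dinucleotides, at 79.2% and 85.6% G or C, whereas KCND1 held 8 at 65.6% and KCNN4 5 at 60%. The windows from 250 bases before to 50 after the start were also searched on both strands for the half-sites of RE1, the element bound by REST, a repressor of neuronal genes, as CAGCACC followed by GGACAG with at most 9 bases between them. The pair was present in 2 of 122 member windows (1.64%), those of KCNH5 and KCNH6, and in 0.134% of all 35116 windows. Both are shown with the half-sites in capitals, KCNH5 from chr14:63045482-63045538 on the minus strand and KCNH6 from chr17:63523108-63523166 on the plus strand.
KCNH5: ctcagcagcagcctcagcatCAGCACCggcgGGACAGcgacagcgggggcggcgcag
KCNH6: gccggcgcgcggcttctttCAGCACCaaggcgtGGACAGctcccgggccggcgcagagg
The AP-1 site TGACTCA was present in 6 member windows (4.92%, against 4.95% of all windows), those of KCNN3, SCN1A, KCNMB3, KCNMA1, KCNJ16 and KCNJ15. A match is a match of letters and no measured site.

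All 3 Cav2 calcium channel pores, which serve transmitter and hormone release, were lower in both human sorts, and in mouse 2 were lower and 1 higher. CACNA1A, the P/Q-type pore of presynaptic terminals, had 37.8, 37.97 and 37.2 CPM in PD-L1 high, 85.02, 80.5 and 91.03 in PD-L1 low, 75.6, 80.1 and 81.9 in H69M, and 229.6, 195 and 197 in H69. The 4 groups did not overlap except PD-L1 low with H69M, and PD-L1 high was lowest (log2 fold change -1.18 ± 0.07, adjusted p = 3.28e-12 for the PD-L1 sort, where ± is the SE). In H69EZ it had 8.07 and 7.79 CPM in HLA high, against 47.9 and 48.3 in HLA low (log2 fold change -2.599 ± 0.09, adjusted p = 5.31e-192). In mouse the order was opposite, with Cacna1a at 62.4, 66.1 and 103 CPM in RPP-A, against 45.9, 36.4 and 35.98 in RPP. RPP-A lay above every RPP library (log2 fold change 0.97 ± 0.21, adjusted p = 0.00308).

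CACNA1B, the N-type pore, had 11.9, 11.7 and 12.2 CPM in PD-L1 high, 40.2, 39.5 and 42.7 in PD-L1 low, 19.5, 24.1 and 24.2 in H69M, and 42.1, 35.1 and 35.4 in H69. PD-L1 high lay below every other library (log2 fold change -1.77 ± 0.09, adjusted p = 7.00e-13). It had 4.004 and 3.08 CPM in HLA high, against 23.6 and 24.5 in HLA low (log2 fold change -2.74 ± 0.11). Cacna1b had 1.22, 1.205 and 0.812 CPM in RPP-A, against 97.9, 77.2 and 72.5 in RPP (log2 fold change -6.25 ± 0.20, adjusted p = 2.12e-07). CACNA1E, the R-type pore, had 50.8, 52.01 and 50.6 CPM in PD-L1 high, against 128, 134 and 129 in PD-L1 low, and 19.02 and 17.8 CPM in HLA high, against 48.5 and 49.5 in HLA low. Cacna1e was scarce in both mouse lines, at 0.203, 0.0574 and 0 CPM in RPP-A, against 6.52, 2.84 and 3.72 in RPP, and its log2 fold change of -5.57 became -6.82 without RPPM1.

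The L-type pores parted. CACNA1D, the L-type pore of neuroendocrine cells, had 0.147, 0.16 and 0.281 CPM in PD-L1 high, 1.46, 1.26 and 0.868 in PD-L1 low, 0.135, 0.149 and 0.191 in H69M, and 14.2, 12.6 and 12.1 in H69. H69 stood above the 3 groups of the H69M line by a wide margin, and the PD-L1 sort gave log2 fold change -2.69 ± 0.36. It had 0.28 and 0.313 CPM in HLA high, against 1.44 and 1.51 in HLA low. Cacna1d had 0.135, 0.115 and 0 CPM in RPP-A, against 15.4, 21.1 and 17.7 in RPP (log2 fold change -7.63 ± 0.39, adjusted p = 1.29e-06). CACNA1C, the L-type pore of heart and smooth muscle, had 7.58, 9.398 and 7.66 CPM in PD-L1 high, 6.56, 5.44 and 6.65 in PD-L1 low, 7.504, 8.06 and 7.801 in H69M, and 24.8, 24.2 and 26.5 in H69. H69 was again highest, and PD-L1 high exceeded PD-L1 low (log2 fold change 0.41 ± 0.11, adjusted p = 0.00274). CACNA1C also rose in the HLA sort, at 26.2 and 23.8 CPM in HLA high, against 13.6 and 13.7 in HLA low (log2 fold change 0.87 ± 0.09). Cacna1c had 74.7, 77.1 and 55.1 CPM in RPP-A, against 67.2, 76.9 and 72.6 in RPP, a difference that missed the threshold (log2 fold change -0.07 ± 0.14, adjusted p = 0.675) and passed it with library totals in place of TMM (-0.43, adjusted p = 0.0197).

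The T-type pores open at low voltage. CACNA1H had 63.7, 67.8 and 63.00 CPM in PD-L1 high, 113, 87.2 and 110.0 in PD-L1 low, 47.4, 54.02 and 53.2 in H69M, and 109, 96.7 and 104 in H69, with log2 fold change -0.67 ± 0.08 in the PD-L1 sort and the 3 lowest values in H69M. It had 29.97 and 25.98 CPM in HLA high, against 87.8 and 88.7 in HLA low (log2 fold change -1.65 ± 0.07). Cacna1h had 5.01, 4.65 and 3.87 CPM in RPP-A, against 46.9, 20.8 and 21.4 in RPP (log2 fold change -2.71 ± 0.35). CACNA1G had 2.15, 2.83 and 2.81 CPM in PD-L1 high, 2.57, 2.14 and 3.11 in PD-L1 low, 0.449, 0.448 and 0.688 in H69M, and 0.241, 0.453 and 0.565 in H69. Both PD-L1 fractions lay above unsorted H69M and H69, and the test between them missed the threshold (log2 fold change 0.01 ± 0.20, adjusted p = 0.961). CACNA1G had 6.79 and 6.05 CPM in HLA high, against 1.98 and 2.23 in HLA low (log2 fold change 1.62 ± 0.14). Cacna1g had 10.02, 9.52 and 9.99 CPM in RPP-A, against 8.803, 1.94 and 2.18 in RPP, where EHK_RPP4 lay close to RPP-A: the difference of 1.22 ± 0.52 had adjusted p = 0.0628, and without EHK_RPP4 it was 2.30 with adjusted p = 9.53e-06.

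The auxiliary calcium channel genes moved in several ways. CACNA2D1, an alpha2delta subunit and the target of gabapentin, had 82.1, 89.2 and 82.6 CPM in PD-L1 high, 70.3, 76.2 and 70.5 in PD-L1 low, 86.6, 92.2 and 85.96 in H69M, and 214, 210.2 and 223 in H69. All groups of the H69M line lay below H69, and PD-L1 high slightly above PD-L1 low (log2 fold change 0.23 ± 0.06, adjusted p = 0.00101), a call that library totals in place of TMM removed (0.09, adjusted p = 0.141). It had 116 and 136 CPM in HLA high, against 145 and 145 in HLA low (log2 fold change -0.21 ± 0.06, adjusted p = 0.00181), and leaving out either HLA low library ended that call (adjusted p = 0.0967 and 0.0932). Cacna2d1 had 121, 118 and 112 CPM in RPP-A, against 192, 279.9 and 272 in RPP (log2 fold change -1.08 ± 0.15). CACNA2D2 was lower in all 3, at 6.16, 7.16 and 8.44 CPM in PD-L1 high, against 29.3, 28.3 and 30.4 in PD-L1 low, 4.405 and 3.44 CPM in HLA high, against 17.9 and 17.1 in HLA low, and 0.542, 0.459 and 0.187 CPM in RPP-A, against 26.2, 31.98 and 31.98 in RPP. The alpha2delta genes were not uniform. CACNA2D3 fell in PD-L1 high and rose in HLA high: it had 0.636, 0.854 and 0.633 CPM in PD-L1 high, against 7.0, 7.300 and 6.001 in PD-L1 low (log2 fold change -3.25 ± 0.21). HLA sort values were 6.77 and 6.38 CPM in HLA high, against 0.217 and 0.186 in HLA low (log2 fold change 5.004 ± 0.23). Cacna2d4 had 0 CPM in each RPP-A library, against 8.88, 5.68 and 6.11 in RPP, at least 109-fold lower. Such bounds take a floor of 3 counts over the group at 0, ratios by counts are given where a group held 1 to 3 counts, and both cover counting error only.

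CACNB3, a beta subunit that brings the pore to the membrane, had 24.9, 23.7 and 28.3 CPM in PD-L1 high, against 42.04, 40.7 and 41.1 in PD-L1 low (log2 fold change -0.70 ± 0.07). HLA sort values were 29.3 and 25.5 CPM in HLA high, against 45.97 and 48.9 in HLA low (log2 fold change -0.79 ± 0.08). Cacnb3 had 172, 184 and 181 CPM in RPP-A, against 107, 82.1 and 77.8 in RPP and was higher in RPP-A (log2 fold change 1.01 ± 0.13, adjusted p = 0.000206). CACNB4 had 0.801 and 0.73 CPM in HLA high, against 0 CPM in each HLA low library, at least 24.05-fold higher, whereas Cacnb4 averaged 6.21 ± 0.873 CPM in RPP-A, against 36.1 ± 2.63 CPM in RPP. CACNG4, a gamma subunit family member that also traffics AMPA-type glutamate receptors, averaged 23.98 ± 1.25 CPM in PD-L1 high, against 93.04 ± 4.81 CPM in PD-L1 low, and 31.1 ± 0.596 CPM in HLA high, against 31.2 ± 0.699 CPM in HLA low. The HLA sort difference missed the threshold (log2 fold change -0.01 ± 0.08, adjusted p = 0.945). Cacng4 averaged 0.302 ± 0.186 CPM in RPP-A, against 26.7 ± 4.16 CPM in RPP.

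Of the sodium channel pores, SCN8A and SCN1A fell in PD-L1 high, in HLA high and in RPP-A, whereas SCN9A rose in HLA high. SCN8A, the pore of the neuronal axon initial segment, had 52.6, 56.4 and 60.5 CPM in PD-L1 high, 73.3, 67.2 and 83.4 in PD-L1 low, 50.01, 55.1 and 54.9 in H69M, and 57.97, 50.2 and 50.6 in H69. PD-L1 low was highest, and the PD-L1 sort gave log2 fold change -0.40 ± 0.08, adjusted p = 0.000113. SCN8A had 37.5 and 41.5 CPM in HLA high, against 95.2 and 96.4 in HLA low (log2 fold change -1.28 ± 0.07), and Scn8a 0.135, 0.172 and 0.125 CPM in RPP-A, against 46.6, 37.5 and 36.97 in RPP (log2 fold change -8.04 ± 0.23, adjusted p = 1.58e-07). SCN9A, the pore of peripheral sensory neurons, had 53.9, 48.1 and 53.5 CPM in PD-L1 high, 105, 124 and 104 in PD-L1 low, 112, 105 and 114 in H69M, and 101, 101 and 90.6 in H69. It was lower in PD-L1 high (log2 fold change -1.104 ± 0.07, adjusted p = 2.13e-11) and higher in the HLA sort, at 58.1 and 63.5 CPM in HLA high, against 25.4 and 26.3 in HLA low (log2 fold change 1.23 ± 0.07). Scn9a had 7.31, 8.26 and 4.12 CPM in RPP-A, against 62.7, 69.6 and 70.4 in RPP (log2 fold change -3.36 ± 0.23, adjusted p = 5.37e-06).

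SCN1A, a pore of inhibitory neurons, averaged 9.49 ± 0.805 CPM in PD-L1 high, against 28.7 ± 3.300 CPM in PD-L1 low, 3.77 ± 0.201 CPM in HLA high, against 12.98 ± 0.744 CPM in HLA low, and 0.106 ± 0.102 CPM in RPP-A, against 10.2 ± 0.12 CPM in RPP. SCN4A, the skeletal muscle pore, averaged 0.126 ± 0.0485 CPM in PD-L1 high, against 2.01 ± 0.173 CPM in PD-L1 low (log2 fold change -3.87 ± 0.35). In the HLA sort it averaged 0.266 ± 0.0654 CPM in HLA high, against 0.25 ± 0.0735 CPM in HLA low, a difference that missed the threshold (log2 fold change 0.09 ± 0.46, adjusted p = 0.869). SCN3A was no member in the human tables, whereas Scn3a had 1.35, 1.15 and 1.75 CPM in RPP-A, against 36.2, 21.2 and 21.1 in RPP, and Scn2a1 2.23, 1.95 and 2.31 CPM in RPP-A, against 9.46, 8.86 and 8.22 in RPP.

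Beta subunits set the gating and membrane level of sodium channels. SCN3B had 0.636, 0.748 and 0.914 CPM in PD-L1 high, 8.37, 7.86 and 10.05 in PD-L1 low, 1.35, 1.34 and 2.103 in H69M, and 2.62, 2.53 and 2.34 in H69. It stood highest in PD-L1 low and lowest in PD-L1 high (log2 fold change -3.52 ± 0.20, adjusted p = 1.91e-12). It had 0.981 and 0.938 CPM in HLA high, against 3.300 and 3.64 in HLA low, and Scn3b 0.339, 0.115 and 0.0624 CPM in RPP-A, against 6.44, 6.78 and 7.52 in RPP, with a log2 fold change of -5.31 that was -6.14 without RPPM1. SCN4B had 0, 0 and 0.0703 CPM in PD-L1 high, against 1.55, 1.07 and 1.81 in PD-L1 low, 76.5-fold lower by counts (95% counting interval 13.4 to 3058).

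Kv1 pores fell in both human sorts. KCNA1, a Kv1 pore of axons, had 114, 113 and 110.4 CPM in PD-L1 high, 338, 337 and 342 in PD-L1 low, 303, 321 and 332 in H69M, and 412, 389.6 and 391 in H69. PD-L1 high lay below every other library (log2 fold change -1.59 ± 0.05, adjusted p = 9.32e-17). It had 71.1 and 70.8 CPM in HLA high, against 793 and 832 in HLA low (log2 fold change -3.52 ± 0.07, with an adjusted p returned as 0). KCNA3, a Kv1 pore best known from T lymphocytes, had 0 CPM in each PD-L1 high library, 0.709, 0.651 and 1.01 in PD-L1 low, 0.0899, 0.0995 and 0.0382 in H69M, and 1.65, 1.77 and 1.77 in H69, at least 13.5-fold lower in the PD-L1 sort. It had 0.18 and 0.287 CPM in HLA high, against 3.597 and 3.46 in HLA low (log2 fold change -3.94 ± 0.26). Kcna3 had 0.0677, 0 and 0.0624 CPM in RPP-A, against 1.22, 1.52 and 0.984 in RPP, 30.03-fold lower by counts (95% counting interval 7.898 to 255). KCNA6 had 0.93, 0.374 and 0.352 CPM in PD-L1 high, 6.03, 5.02 and 4.92 in PD-L1 low, 2.25, 2.39 and 2.41 in H69M, and 22.9, 23.7 and 28.5 in H69, highest in H69, with log2 fold change -3.198 ± 0.25 in the sort (-3.89 without PD-L1 high replicate 1). HLA sort values were 3.12 and 2.79 CPM in HLA high, against 6.66 and 5.92 in HLA low. Kcna4, an A-type Kv1 pore, was the 1 of 3 tested Kv1 genes that rose in the mouse lines, at 2.91, 3.44 and 2.81 CPM in RPP-A, against 0.163, 0.346 and 0.422 in RPP (log2 fold change 3.24 ± 0.33, adjusted p = 4.72e-05). Kcna4 met the member rule through RPP-A alone, and Kcna3 and Kcna5 through RPP alone, so the rule favoured their directions.

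KCNB2, a Kv2 pore, was lower in each pair, and averaged 12.2 ± 1.01 CPM in PD-L1 high, against 52.8 ± 2.74 CPM in PD-L1 low, 3.08 ± 0.0734 CPM in HLA high, against 15.9 ± 0.0937 CPM in HLA low, and 0.0956 ± 0.166 CPM in RPP-A, against 19.4 ± 1.13 CPM in RPP. KCNC1, a Kv3 pore that permits fast firing, had 11.3, 11.2 and 9.63 CPM in PD-L1 high, 33.2, 29.9 and 36.01 in PD-L1 low, 22.2, 25.4 and 27.6 in H69M, and 38.7, 34.3 and 31.2 in H69 (log2 fold change -1.61 ± 0.11, adjusted p = 1.85e-11 for the sort). PD-L1 high was below every other library. KCNC1 had 6.73 and 6.697 CPM in HLA high, against 36.97 and 37.6 in HLA low (log2 fold change -2.47 ± 0.09). Kcnc1 had 0.474, 0.574 and 0 CPM in RPP-A, against 70.3, 67.97 and 66.00 in RPP (log2 fold change -7.56 ± 0.38, or -8.16 without RPPM2). KCNC4 had 1.08, 1.76 and 1.13 CPM in PD-L1 high, 3.37, 2.88 and 2.89 in PD-L1 low, 1.71, 1.34 and 1.797 in H69M, and 10.7, 9.55 and 8.79 in H69, highest in H69. Kcnc4 had 0 CPM in each RPP-A library, against 9.62, 9.48 and 7.801 in RPP, at least 144-fold lower. KCNC2 averaged 0.307 ± 0.174 CPM in PD-L1 high, against 1.37 ± 0.07 CPM in PD-L1 low, and 1.01 ± 0.0625 CPM in H69M, against 5.66 ± 0.0931 CPM in H69.

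The Kv4 genes, pores of the fast A-type current, split by member. KCND1 had 5.72, 7.74 and 8.16 CPM in PD-L1 high, 2.39, 2.51 and 2.31 in PD-L1 low, 2.52, 2.59 and 2.98 in H69M, and 1.37, 0.642 and 0.484 in H69. PD-L1 high was highest and H69 lowest without overlap (log2 fold change 1.56 ± 0.19, adjusted p = 2.73e-07). It had 13.8 and 13.6 CPM in HLA high, against 4.703 and 5.52 in HLA low (log2 fold change 1.43 ± 0.11). Kcnd1 had 11.8, 15.5 and 11.7 CPM in RPP-A, against 3.26, 1.66 and 1.76 in RPP (log2 fold change 2.56 ± 0.28, adjusted p = 7.48e-05). KCND2 averaged 28.6 ± 2.72 CPM in PD-L1 high, against 57.6 ± 2.86 CPM in PD-L1 low, 16.8 ± 1.65 CPM in HLA high, against 57.9 ± 1.02 CPM in HLA low, and 0.542 ± 0.439 CPM in RPP-A, against 21.9 ± 1.08 CPM in RPP, and was lower in each. KCND3 had 0.391, 0.481 and 0.141 CPM in PD-L1 high, 0.62, 0.558 and 0.795 in PD-L1 low, 1.62, 1.69 and 2.06 in H69M, and 0.322, 0.302 and 0.161 in H69 and was highest in H69M. Silent Kv subunits, which form no channel alone and alter Kv2, included KCNG1, with 5.33, 4.97 and 3.52 CPM in PD-L1 high, 28.2, 23.7 and 28.99 in PD-L1 low, 2.25, 2.98 and 3.14 in H69M, and 2.01, 1.25 and 1.61 in H69 (log2 fold change -2.51 ± 0.14 in the sort). KCNS3 had 2.58 and 2.48 CPM in HLA high, against 25.2 and 26.2 in HLA low (log2 fold change -3.34 ± 0.11, adjusted p = 1.26e-193), whereas its difference in the PD-L1 sort missed the threshold (log2 fold change 0.11 ± 0.31, adjusted p = 0.759).

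**Figure D4:**
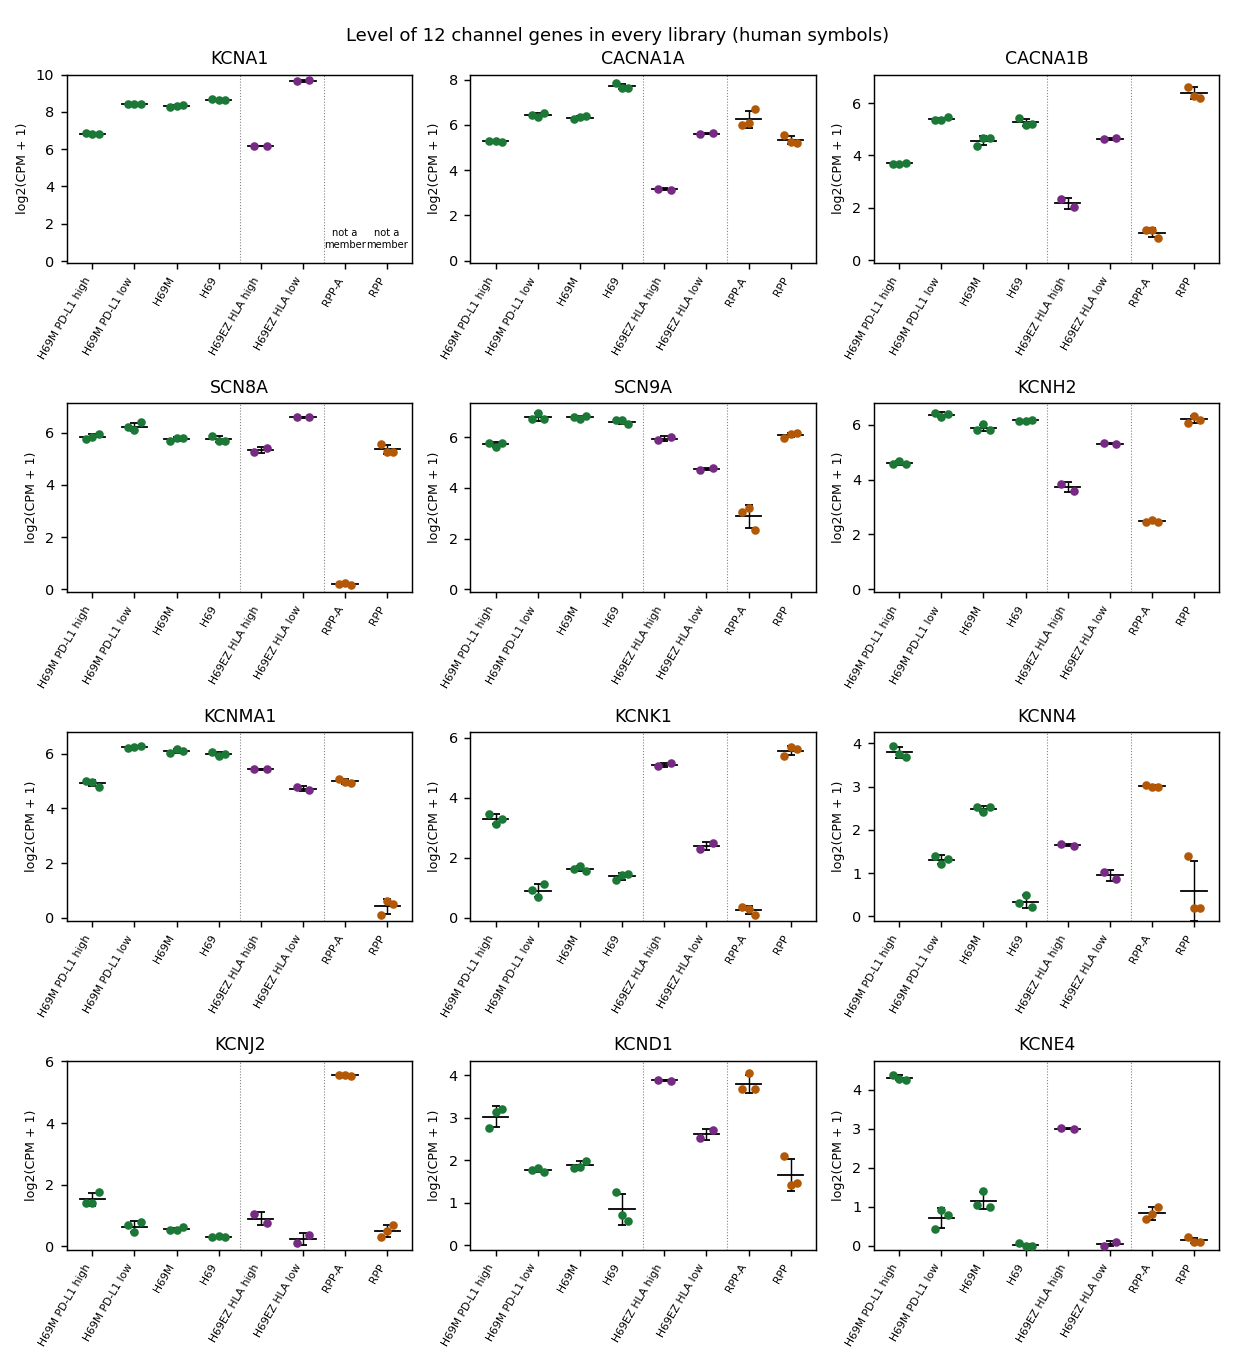
log2(CPM + 1) of 12 channel genes in every library (points), with the mean ± SD of these log values (bars), for the 8 groups. KCNA1, CACNA1B, SCN8A and KCNH2 lie lower in PD-L1 high, HLA high and in RPP-A, where measured, than in their counterparts, KCNN4, KCNJ2 and KCND1 lie higher, and KCNMA1, KCNK1, SCN9A and CACNA1A change direction between tables.

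KCNQ3 encodes a subunit of the M-current channel, which restrains repeated firing. It had 6.75, 5.98 and 5.27 CPM in PD-L1 high, 36.5, 39.3 and 40.2 in PD-L1 low, 22.1, 22.4 and 24.3 in H69M, and 89.6, 89.4 and 89.7 in H69, highest in H69 and lowest in PD-L1 high (log2 fold change -2.67 ± 0.08). In H69EZ, KCNQ3 averaged 23.8 ± 0.802 CPM in HLA high, against 46.4 ± 0.351 CPM in HLA low. Kcnq3 had 0, 0.172 and 0.187 CPM in RPP-A, against 9.46, 6.02 and 6.33 in RPP (log2 fold change -5.78 ± 0.49). KCNQ1, the epithelial and cardiac member, had 0.0489, 0.427 and 0.211 CPM in PD-L1 high, 2.84, 2.51 and 2.96 in PD-L1 low, 0.0899, 0.0497 and 0.0382 in H69M, and 0.201, 0.113 and 0.0807 in H69, highest in PD-L1 low. Kcnq1 had 0, 0.0574 and 0 CPM in RPP-A, against 9.13, 10.4 and 11.2 in RPP, 497-fold lower by counts (95% counting interval 88.7 to 19676) (fitted log2 value -8.46, or -10.20 without RPPM2). KCNQ5 averaged 60.7 ± 3.36 CPM in PD-L1 high, against 64.5 ± 4.12 CPM in PD-L1 low, a difference that missed the threshold (log2 fold change -0.09 ± 0.06, adjusted p = 0.202).

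Of 8 KCNH genes, 7 fell in PD-L1 high, 6 in HLA high and 8 in RPP-A, and over all genes 39.4%, 40.2% and 40.6% did. All mouse KCNH genes except Kcnh2 met the member rule through RPP alone, so their fall was largely fixed by the rule. KCNH2 encodes hERG, which repolarises the heart and shapes firing in endocrine cells. It had 22.9, 24.9 and 22.6 CPM in PD-L1 high, 85.9, 77.00 and 84.4 in PD-L1 low, 55.3, 63.97 and 55.5 in H69M, and 69.7, 70.6 and 72.05 in H69. PD-L1 high lay below every other library (log2 fold change -1.81 ± 0.07, adjusted p = 3.89e-15). It had 13.4 and 11.1 CPM in HLA high, against 39.3 and 38.7 in HLA low (log2 fold change -1.66 ± 0.08). Kcnh2 had 4.47, 4.76 and 4.49 CPM in RPP-A, against 66.4, 79.8 and 71.97 in RPP (log2 fold change -3.99 ± 0.12, adjusted p = 1.66e-07). KCNH1, which encodes EAG and is studied in many tumours, had 7.34, 7.102 and 8.44 CPM in PD-L1 high, 4.61, 5.53 and 5.93 in PD-L1 low, 8.94, 9.05 and 9.83 in H69M, and 5.11, 5.21 and 5.73 in H69 (log2 fold change 0.52 ± 0.12, adjusted p = 0.000567 in the PD-L1 sort). H69M and PD-L1 high did not overlap PD-L1 low or H69. In H69EZ KCNH1 had 7.31 and 7.06 CPM in HLA high, against 2.45 and 2.41 in HLA low (log2 fold change 1.56 ± 0.13). Kcnh1 had 0.135, 0.344 and 0.0624 CPM in RPP-A, against 4.32, 1.94 and 1.62 in RPP, lower in RPP-A (log2 fold change -3.74 ± 0.63, adjusted p = 0.000825), and the fold ran from -4.61 without RPPM2 to -3.16 without EHK_RPP4. KCNH5, whose promoter holds RE1 half-sites, averaged 5.86 ± 0.305 CPM in PD-L1 high, against 16.2 ± 1.28 CPM in PD-L1 low, and 0.638 ± 0.166 CPM in HLA high, against 0.0412 ± 0.0255 CPM in HLA low, lower in PD-L1 high and higher in HLA high. In H69EZ, KCNH5 met the member rule through HLA high alone, so the rule favoured its rise there. KCNH6, with the other such promoter, averaged 17.1 ± 2.11 CPM in PD-L1 high, against 33.3 ± 1.31 CPM in PD-L1 low, 1.903 ± 0.257 CPM in HLA high, against 13.4 ± 0.00602 CPM in HLA low, and 0.181 ± 0.146 CPM in RPP-A, against 24.2 ± 0.402 CPM in RPP. Kcnh8 had 0.0677, 0.0574 and 0.0624 CPM in RPP-A, against 29.3, 24.4 and 22.9 in RPP, 407-fold lower by counts (95% counting interval 139 to 1979).

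Of 9 auxiliary Kv genes tested, 2 rose and 7 fell in PD-L1 high, 2 rose and 5 fell in HLA high, and 1 of 7 rose and 5 fell in RPP-A. All genes divided into 39% higher and 39.4% lower in PD-L1 high, 41.1% and 40.2% in HLA high, and 37.6% and 40.6% in RPP-A. Kcnab1 met the member rule through RPP-A alone, and Kcnip1 and Kcnip2 through RPP alone, so the rule favoured their directions. In H69EZ, KCNE4 met it through HLA high alone, so the rule favoured its rise there. KCNE4, a single-span inhibitor of KCNQ1 and Kv1 channels, had the largest rise among these auxiliary genes in both human sorts. It had 19.9, 18.5 and 18.2 CPM in PD-L1 high, 0.354, 0.883 and 0.723 in PD-L1 low, 1.08, 1.64 and 0.994 in H69M, and 0.0402, 0 and 0 in H69. PD-L1 high lay far above all others (log2 fold change 4.87 ± 0.19, adjusted p = 4.18e-15). It had 7.13 and 6.98 CPM in HLA high, against 0 and 0.0696 in HLA low, 221-fold higher by counts (95% counting interval 75.2 to 1073), and the fitted log2 value of 7.67 ran from 6.61 to 11.35 when either HLA low library was left out. Kcne4 was not tested and had 0.609, 0.746 and 0.999 CPM in RPP-A, against 0.163, 0.0692 and 0.0703 in RPP. KCNAB1, a cytoplasmic beta subunit, had 5.14, 4.33 and 3.87 CPM in PD-L1 high, 0.886, 1.16 and 1.08 in PD-L1 low, 0.18, 0.0497 and 0.153 in H69M, and 0.0402, 0.0378 and 0 in H69 (log2 fold change 2.11 ± 0.20), and Kcnab1 13.1, 12.6 and 13.4 CPM in RPP-A, against 0.571, 0.138 and 0.211 in RPP (log2 fold change 5.43 ± 0.34, or 6.2 without EHK_RPP4). In the HLA sort KCNAB1 had 1.101 and 1.67 CPM in HLA high, against 1.44 and 1.299 in HLA low, and the groups overlapped (log2 fold change -0.02 ± 0.22, adjusted p = 0.927). KCNIP3, a calcium sensor that binds Kv4, had 1.201 and 0.834 CPM in HLA high, against 10.1 and 10.2 in HLA low (log2 fold change -3.29 ± 0.15), and averaged 1.45 ± 0.319 CPM in PD-L1 high, against 4.701 ± 0.411 CPM in PD-L1 low. Kcnip3 averaged 3.398 ± 0.154 CPM in RPP-A, against 37.98 ± 5.27 CPM in RPP. Kcnip2 had 0.135, 0.172 and 0 CPM in RPP-A, against 48.6, 25.5 and 29.1 in RPP (log2 fold change -8.26 ± 0.51, or -8.86 without RPPM2).

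Of the calcium-activated potassium channels, KCNN4 was higher in all 3 pairs. KCNN4, the intermediate-conductance channel of lymphocytes and red cells, had 14.3, 12.4 and 11.95 CPM in PD-L1 high, 1.64, 1.302 and 1.52 in PD-L1 low, 4.76, 4.33 and 4.78 in H69M, and 0.241, 0.415 and 0.161 in H69. The 4 groups did not overlap, in the order PD-L1 high, H69M, PD-L1 low and H69 (log2 fold change 3.12 ± 0.15, adjusted p = 7.98e-14 for the sort). It had 2.18 and 2.11 CPM in HLA high, against 1.05 and 0.812 in HLA low (log2 fold change 1.19 ± 0.21, adjusted p = 3.07e-08). Kcnn4 had 7.18, 6.998 and 6.93 CPM in RPP-A, against 1.63, 0.138 and 0.141 in RPP, higher in RPP-A (log2 fold change 3.54 ± 0.65, adjusted p = 0.00135), and without EHK_RPP4 the log2 fold change was 5.62. Of the small-conductance genes, KCNN3 was higher in the PD-L1 sort, at 1.04 ± 0.148 CPM in PD-L1 high, against 0.569 ± 0.145 CPM in PD-L1 low (log2 fold change 0.85 ± 0.38, adjusted p = 0.0455). It was lower in the HLA sort, at 1.302 ± 0.00109 CPM in HLA high, against 4.13 ± 0.105 CPM in HLA low. KCNN1 averaged 0.913 ± 0.0899 CPM in PD-L1 high, against 5.801 ± 0.891 CPM in PD-L1 low, and 1.33 ± 0.00536 CPM in HLA high, against 10.7 ± 0.24 CPM in HLA low. Kcnn1 averaged 0.873 ± 0.0692 CPM in RPP-A, against 2.04 ± 1.52 CPM in RPP, a difference that missed the threshold (log2 fold change -1.19 ± 0.54, adjusted p = 0.0745). Kcnn3 averaged 0.108 ± 0.0828 CPM in RPP-A, against 19.7 ± 5.25 CPM in RPP, and KCNN3 1.04 ± 0.148 CPM in PD-L1 high, against 0.569 ± 0.145 CPM in PD-L1 low, and 1.302 ± 0.00109 CPM in HLA high, against 4.13 ± 0.105 CPM in HLA low.

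KCNMA1, the pore of the large-conductance BK channel, had 31.2, 30.7 and 26.8 CPM in PD-L1 high, 73.7, 74.95 and 77.2 in PD-L1 low, 64.5, 70.6 and 66.96 in H69M, and 65.5, 59.3 and 63.3 in H69. It was lower in PD-L1 high (log2 fold change -1.34 ± 0.07, adjusted p = 1.49e-13). In the HLA sort it was higher, at 41.99 and 42.6 CPM in HLA high, against 26.5 and 24.4 in HLA low (log2 fold change 0.73 ± 0.08). Kcnma1 was far higher in the derived mouse line, at 33.2, 30.00 and 29.7 CPM in RPP-A, against 0.0815, 0.554 and 0.422 in RPP (log2 fold change 6.37 ± 0.30, adjusted p = 8.98e-07). Kcnma1 met the member rule through RPP-A alone, so the rule favoured this direction. KCNMB1, the smooth muscle beta subunit of BK, had 4.84, 6.09 and 6.54 CPM in PD-L1 high, 0 CPM in each PD-L1 low library, 0.584, 0.895 and 1.19 in H69M, and 0, 0.0378 and 0 in H69. It was at least 111-fold higher in PD-L1 high than in PD-L1 low, and H69M lay between the fractions. KCNMB2 averaged 14.8 ± 1.81 CPM in PD-L1 high, against 73.4 ± 4.69 CPM in PD-L1 low, and 19.3 ± 0.79 CPM in HLA high, against 54.9 ± 2.21 CPM in HLA low. Kcnmb2 had 0, 0.0574 and 0.125 CPM in RPP-A, against 13.6, 14.1 and 13.6 in RPP, 221-fold lower by counts (95% counting interval 75.4 to 1077). KCNMB4, the neuronal beta subunit, averaged 9.79 ± 0.505 CPM in PD-L1 high, against 10.3 ± 0.309 CPM in PD-L1 low (log2 fold change -0.06 ± 0.09, adjusted p = 0.515), 11.6 ± 0.796 CPM in HLA high, against 7.48 ± 0.152 CPM in HLA low (log2 fold change 0.62 ± 0.10), and 8.82 ± 0.782 CPM in RPP-A, against 22.1 ± 2.19 CPM in RPP (log2 fold change -1.32 ± 0.14). KCNT1, a sodium-activated channel, had 0 and 0.0261 CPM in HLA high, against 0.889 and 1.23 in HLA low, 92.4-fold lower by counts (95% counting interval 16.2 to 3685). Kcnt1 averaged 0.162 ± 0.114 CPM in RPP-A, against 21.8 ± 3.38 CPM in RPP.

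Of the inward rectifiers tested, 4 of 9 rose and 5 fell in PD-L1 high, 3 of 11 rose and 8 fell in HLA high, and 1 of 6 rose and 5 fell in RPP-A. The shares over all genes were 39% higher and 39.4% lower in PD-L1 high, 41.1% and 40.2% in HLA high, and 37.6% and 40.6% in RPP-A. The mouse rectifiers that fell met the member rule through RPP alone, and Kcnj2 met it through RPP-A alone. Their directions in mouse were thus largely fixed by the rule. In H69EZ, KCNJ8 and KCNJ15 met it through HLA high alone, and KCNJ9 and KCNJ16 among others through HLA low alone. KCNJ15 met it in the H69 table through PD-L1 high alone. The rule favoured these directions too. KCNJ2, a strong rectifier that holds the resting potential, had 1.66, 1.66 and 2.39 CPM in PD-L1 high, 0.62, 0.372 and 0.723 in PD-L1 low, 0.449, 0.448 and 0.535 in H69M, and 0.241, 0.264 and 0.242 in H69. PD-L1 high lay above all other libraries (log2 fold change 1.74 ± 0.27, adjusted p = 5.68e-06). It had 1.08 and 0.678 CPM in HLA high, against 0.079 and 0.302 in HLA low (log2 fold change 2.29 ± 0.37, adjusted p = 1.43e-09), and Kcnj2 45.7, 46.2 and 45.1 CPM in RPP-A, against 0.245, 0.415 and 0.633 in RPP (log2 fold change 6.67 ± 0.21, adjusted p = 1.95e-07). KCNJ8, the pore of the ATP-sensitive channel of vascular smooth muscle and pericytes, had 16.1, 15.2 and 13.3 CPM in PD-L1 high, 4.65, 4.05 and 4.05 in PD-L1 low, 5.98, 5.57 and 6.501 in H69M, and 0 CPM in each H69 library. It was at least 320.0-fold higher in PD-L1 high than in H69, and differed between the fractions by log2 fold change 1.81 ± 0.12. It had 16.1 and 14.9 CPM in HLA high, against 0.0395 and 0.0232 in HLA low, 486-fold higher by counts (95% counting interval 166 to 2361). KCNJ15 had 24.01 and 22.3 CPM in HLA high, against 0 and 0.0232 in HLA low, 2181-fold higher by counts (95% counting interval 391 to 86201), and the fitted log2 value of 10.76 ran from 9.80 to 13.07 when either HLA low library was left out. In the H69 table it had 0.881, 0.748 and 0.984 CPM in PD-L1 high, 0 CPM in each PD-L1 low library, 0.359, 0.448 and 0.344 in H69M, and 0 CPM in each H69 library, at least 16.6-fold higher in the PD-L1 sort.

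KCNJ11, the pore of the ATP-sensitive channel of islet cells, had 1.57, 1.44 and 1.62 CPM in PD-L1 high, 9.97, 9.39 and 8.75 in PD-L1 low, 4.63, 4.38 and 4.51 in H69M, and 31.2, 33.6 and 28.1 in H69. H69 was highest and PD-L1 high lowest (log2 fold change -2.61 ± 0.14). It had 1.402 and 1.72 CPM in HLA high, against 12.5 and 12.1 in HLA low (log2 fold change -2.99 ± 0.13). Kcnj11 had 0 CPM in each RPP-A library, against 4.56, 3.18 and 3.51 in RPP, at least 59.7-fold lower. KCNJ3 and KCNJ6 encode G-protein-gated rectifiers. Both were lower in each pair. KCNJ3 averaged 12.6 ± 1.53 CPM in PD-L1 high, against 17.8 ± 1.03 CPM in PD-L1 low, 7.93 ± 0.942 CPM in HLA high, against 22.8 ± 0.116 CPM in HLA low, and 0.167 ± 0.0394 CPM in RPP-A, against 13.1 ± 3.96 CPM in RPP. KCNJ6 averaged 6.802 ± 0.566 CPM in PD-L1 high, against 20.5 ± 1.16 CPM in PD-L1 low, and 9.600 ± 0.383 CPM in HLA high, against 12.5 ± 0.738 CPM in HLA low. Kcnj6 had 0, 0.172 and 0.125 CPM in RPP-A, against 10.4, 8.72 and 8.08 in RPP (log2 fold change -6.34 ± 0.43, or -6.93 without RPPM2). KCNJ16, a rectifier of kidney and glia, had 0.0978, 0.374 and 0.0703 CPM in PD-L1 high, 1.11, 1.53 and 1.52 in PD-L1 low, 1.17, 0.796 and 0.803 in H69M, and 12.4, 13.7 and 13.2 in H69, highest in H69, and averaged 0.0621 ± 0.0595 CPM in HLA high, against 0.909 ± 0.0274 CPM in HLA low.

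K2P genes encode background channels that are always partly open. Of those tested, 3 of 11 rose and 6 fell in PD-L1 high, 5 of 9 rose and 3 fell in HLA high, and all 6 fell in RPP-A. Of all genes, 39% were higher and 39.4% lower in PD-L1 high, 41.1% and 40.2% in HLA high, and 37.6% and 40.6% in RPP-A. All tested mouse K2P genes except Kcnk2 met the member rule through RPP alone, so their fall was largely fixed by the rule. KCNK1 had 10.03, 7.796 and 8.72 CPM in PD-L1 high, 0.886, 0.604 and 1.16 in PD-L1 low, 2.07, 2.29 and 1.95 in H69M, and 1.37, 1.66 and 1.77 in H69. PD-L1 high stood above the rest and PD-L1 low below them (log2 fold change 3.38 ± 0.19, adjusted p = 1.22e-12). It had 32.3 and 34.7 CPM in HLA high, against 3.87 and 4.59 in HLA low (log2 fold change 2.99 ± 0.10). In mouse the direction was opposite, with Kcnk1 at 0.271, 0.229 and 0.0624 CPM in RPP-A, against 41.2, 50.6 and 49.1 in RPP (log2 fold change -7.91 ± 0.27, adjusted p = 2.20e-07). KCNK2, opened by stretch and lipids, had 7.49, 7.96 and 8.297 CPM in PD-L1 high, 7.66, 7.25 and 6.51 in PD-L1 low, 6.61, 6.91 and 7.84 in H69M, and 0.805, 1.21 and 0.645 in H69, low in H69 and overlapping across the H69M line. It averaged 8.93 ± 0.204 CPM in HLA high, against 6.42 ± 0.978 CPM in HLA low, and Kcnk2 8.08 ± 1.61 CPM in RPP-A, against 106 ± 10.2 CPM in RPP. Its direction in mouse was opposite to that in the HLA sort. KCNK6 averaged 4.26 ± 0.136 CPM in PD-L1 high, against 3.12 ± 0.364 CPM in PD-L1 low, and 5.75 ± 0.471 CPM in HLA high, against 1.404 ± 0.114 CPM in HLA low (log2 fold change 2.04 ± 0.16). KCNK3, an acid-sensitive member, averaged 11.8 ± 1.25 CPM in PD-L1 high, against 42.3 ± 2.605 CPM in PD-L1 low, 6.703 ± 0.119 CPM in HLA high, against 17.8 ± 0.54 CPM in HLA low, and 0.295 ± 0.0968 CPM in RPP-A, against 17.3 ± 3.17 CPM in RPP. KCNK9, also acid-sensitive, averaged 0.348 ± 0.132 CPM in PD-L1 high, against 1.99 ± 0.176 CPM in PD-L1 low (log2 fold change -2.53 ± 0.34, adjusted p = 9.95e-07), and was 26.4-fold lower by counts (95% counting interval 4.36 to 1079) in HLA high than in HLA low, with a fitted log2 value from -6.73 to -3.72 when either HLA high library was left out. Kcnk16, known from pancreas, had 0 CPM in each RPP-A library, against 8.31, 8.03 and 9.28 in RPP, at least 137-fold lower.

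Against parental H69, unsorted H69M addresses how the derived line differs from its parent. In H69M 43 of 92 channel genes were lower and 29 higher than in H69, against 36.6% lower and 35.9% higher over all genes tested (edgeR, Benjamini-Hochberg), with a median log2 fold change of -0.25. Calls in either direction were made for 72 of them (78.3%), against 72.5% of all genes. Libraries of the groups did not overlap for 70 (76.1%), against 72.9% of all genes. The H69-table comparisons share libraries, so their values are given side by side and not counted as separate support. All 4 tested Kv1 genes and all 3 alpha2delta genes were lower in H69M, whereas all 3 Kv4 genes and 5 of 8 KCNH genes were higher. The largest falls on the same terms were CACNA1D (-6.29), KCNS3 (-3.87), KCNJ16 (-3.82), KCNA6 (-3.39), KCNJ11 (-2.79), KCNC4 (-2.58), KCNC2 (-2.49) and KCNQ3 (-1.96) on the log2 scale. The largest rises included KCNK2 (2.92), KCNH6 (2.23), KCNK10 (2.17), KCNQ5 (1.45), KCNH1 (0.81) and KCNAB3 (0.76), and KCNJ8, which was at least 129-fold higher. KCNN4 rose too (log2 fold change 3.93 ± 0.23, adjusted p = 5.49e-12).

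Some small calls in H69M lay near the threshold and were lost when any of several libraries was left out. SCN9A (log2 fold change 0.17 ± 0.07, adjusted p = 0.0318) lost its call without H69 replicate 3, H69M replicate 1 or H69M replicate 3 (0.13 to 0.16, adjusted p from 0.0762 to 0.114). KCNK9 (log2 fold change 0.82 ± 0.30, adjusted p = 0.0204) lost it without H69 replicate 3, H69M replicate 2 or H69M replicate 3 (0.63 to 0.71, adjusted p from 0.0542 to 0.118). KCNK10, another lipid-sensitive K2P gene, was firmer, at 7.14, 6.73 and 5.91 CPM in PD-L1 high, 27.03, 25.6 and 25.5 in PD-L1 low, 31.00, 32.4 and 32.3 in H69M, and 7.201, 6.57 and 7.83 in H69. H69M and PD-L1 low stood above PD-L1 high and H69. KCNQ5, a further M-current gene, had 64.6, 58.3 and 59.3 CPM in PD-L1 high, 61.6, 69.2 and 62.7 in PD-L1 low, 67.7, 67.4 and 66.9 in H69M, and 25.3, 25.4 and 22.8 in H69, so that every library of the H69M line lay above H69.

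The PD-L1 low fraction, labelled MHC class I low like H69, held the highest channel levels of the 4 groups for many genes. Against H69, 52 of 92 channel genes were higher in PD-L1 low and 29 lower, against 39% higher and 36.9% lower over all genes tested, with a median of 0.39. In all 81 channel genes (88%) were called, against 75.9% of all genes. For 80 (87%) the libraries of the groups did not overlap, against 75.5% of all genes. Of the 99 members, 43 had their highest group mean in PD-L1 low, 33 in H69, 14 in PD-L1 high and 9 in H69M, and in 34, 29, 12 and 3 of these every library lay above all libraries of the other groups. Among the 99, 12 met the member rule through 1 group alone, such as KCNQ1, SCN4B and CACNA1F through PD-L1 low. Their highest group was largely fixed by the rule. The 99 also hold untested members, whereas the shares below are of genes tested. Over all genes tested, the highest mean was in PD-L1 low for 27.7%, in H69 for 30.5%, in PD-L1 high for 32.1% and in H69M for 9.58%. All libraries lay above those of the other groups in 17.6%, 20.6%, 23.9% and 3.76%, in the same order. The 12 genes with all PD-L1 high libraries on top included KCND1, KCNMB1, KCNJ8, KCNK6, KCNE4, KCNJ14, KCNAB1, KCNK1, KCNN4, KCNJ2 and KCNJ15. Those of H69M were KCNH1, KCND3 and KCNK10. Of the auxiliary Kv genes 8 of 9 and of the sodium channel genes 7 of 8 were higher in PD-L1 low than in H69, whereas all 4 Kv1 genes were lower.

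The largest rises in PD-L1 low on the same terms included KCNG1 (4.05), KCNK2 (2.93), KCNH6 (2.13), KCNAB3 (1.89), KCNK10 (1.88), SCN3B (1.78) and CACNA2D3 (1.67). The largest falls were CACNA1D (-3.39), KCNJ16 (-3.25), KCNS3 (-2.398), KCNA6 (-2.202), KCNC2 (-2.03), CACNA1C (-2.02), KCNJ11 (-1.73) and the antisense RNA KCNQ1OT1 (-1.698). SCN9A (log2 fold change 0.19 ± 0.07, adjusted p = 0.0205) lost its call without H69 replicate 3 (0.14) or PD-L1 low replicate 2 (0.10), and KCNJ6 (log2 fold change 0.19 ± 0.08, adjusted p = 0.0342) without H69 replicate 1 (0.16), H69 replicate 2 (0.18) or PD-L1 low replicate 2 (0.14).

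In PD-L1 high, 54 of 92 channel genes were lower and 22 higher than in H69, against 39.5% lower and 38.1% higher over all genes tested, with a median of -0.99. Calls in either direction were made for 76 of them (82.6%), against 77.6% of all genes. Libraries of the groups did not overlap for 78 (84.8%), against 77.9% of all genes. Of the voltage-sensing pores 31 of 44 were lower and 7 higher. The largest falls were KCNJ16 (-6.08, or -7.14 without PD-L1 high replicate 2), CACNA1D (-6.08), KCNA6 (-5.401, or -6.08 without PD-L1 high replicate 1), KCNJ11 (-4.34), KCNC2 (-4.21), KCNQ3 (-3.88), KCNC4 (-2.87) and KCNK3 (-2.57). The largest rises included KCNN4 (5.42), KCNK2 (3.06), KCND1 (2.99, or 3.58 without H69 replicate 1), and KCNK1 (2.49), with KCNJ8, KCNE4 and KCNMB1, which had 0 or 1 count in H69. KCNE4 was 1209-fold higher by counts (95% counting interval 217 to 47816) and KCNMB1 365-fold higher by counts (95% counting interval 65.1 to 14476). Their fitted log2 values, 9.76 and 8.05, ran to 11.56 for KCNE4 without H69 replicate 1 and to 9.83 for KCNMB1 without H69 replicate 2.

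Genes that work with these channels but lie outside the prefix were described from a list of 42 pore and partner genes: pacemaker, leak and endosomal channels, intracellular sodium channel regulators, anchors, vesicle-site scaffolds and calcium channel modulators. In the PD-L1 sort 16 of 35 tested were higher and 17 lower, in the HLA sort 11 of 34 higher and 17 lower, and in RPP-A 9 of 37 higher and 25 lower. Over all genes, 39% were higher and 39.4% lower in the PD-L1 sort, 41.1% and 40.2% in the HLA sort, and 37.6% and 40.6% in RPP-A. RIMS3, a scaffold beside presynaptic calcium channels, was lower in each, at 57.5 ± 2.59 CPM in PD-L1 high, against 239 ± 3.97 CPM in PD-L1 low, 29.4 ± 1.299 CPM in HLA high, against 83.6 ± 1.77 CPM in HLA low, and 0.144 ± 0.0248 CPM in RPP-A, against 33.6 ± 0.943 CPM in RPP. TPCN1, a cation channel of endosomes, was higher in each, at 99.8 ± 3.83 CPM in PD-L1 high, against 24.8 ± 1.82 CPM in PD-L1 low, 31.5 ± 2.74 CPM in HLA high, against 8.56 ± 0.29 CPM in HLA low, and 50.5 ± 2.79 CPM in RPP-A, against 21.5 ± 3.64 CPM in RPP. NALCN, the sodium leak pore, was at 7.98 ± 0.81 CPM in PD-L1 high, against 0.599 ± 0.144 CPM in PD-L1 low and was higher there, and Nalcn at 0.351 ± 0.251 CPM in RPP-A, against 65.9 ± 13.5 CPM in RPP and lower. HCN2, a pacemaker pore, was at 85.2 ± 3.997 CPM in PD-L1 high, against 29.9 ± 4.902 CPM in PD-L1 low and higher, at 23.1 ± 1.46 CPM in HLA high, against 52.2 ± 0.114 CPM in HLA low and lower, and Hcn2 at 6.74 ± 1.39 CPM in RPP-A, against 63.4 ± 14.6 CPM in RPP and lower. Stac2, which binds L-type calcium channels, was at 136 ± 31.9 CPM in RPP-A, against 3.35 ± 2.12 CPM in RPP.

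Several members cannot be told from a neighbour. Exons of 45 of the 109 human members overlap another gene in GENCODE 29, for 39 of them a gene on the opposite strand, and whether reads were counted by strand is not given in the sources used here. KCNQ1 and KCNQ1OT1, and KCNJ2 and KCNJ2-AS1, overlap each other, and KCNMA1 overlaps KCNMA1-AS1. KCNA1, KCNJ8, KCNMB1, SCN8A, SCN9A, SCN1A, CACNA1B, CACNA1C, CACNA1D, CACNA1G and CACNA1H also overlap a gene. So do KCNH1, KCNA6, KCNG1, KCNAB1, KCNK10, KCNQ5, CACNA2D2, CACNA2D3 and further members named above. The values of all these genes are uncertain to that extent.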

How the data were processed

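Per the labels' protocols, exome-captured libraries made from 250 ng of RNA were read on a NextSeq 500. The deposited values are whole-number read counts per gene, in 3 tables that hold all 22 libraries of the 8 groups. STAR 2.6.1 and the builds hg19 and mm10 are named per the submitters' processing notes. Neither the counting program nor its annotation or strand setting is named in these sources. Mouse columns were assigned by group only, with those named RPPM taken as RPP-A.

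Each table was fitted on its own with all its groups in R 4.3.3 and edgeR 4.0.16 (quasi-likelihood F-test, TMM, filterByExpr with a minimum count of 10, two-sided), which tested 15445, 14819 and 14032 genes, among them 92, 94 and 88 channel genes. The p-values were adjusted by Benjamini-Hochberg over all genes tested, and the threshold was 0.05. SEs are log2 fold changes divided by the root of the F statistic, without sign. Common coefficients of biological variation were 0.0540, 0.0450 and 0.157. Residual degrees of freedom were 8, 2 and 4, and the H69EZ fit shared 1 spread estimate across genes at a given abundance. The fits were tested on simulated counts. Untested members were KCNT1, KCNJ9, KCNJ2-AS1, KCNRG, KCNQ5-IT1, KCNV1 and SCN7A (H69 table), KCNK17 and CACNA2D4 (H69EZ table) and Kcnk5, Kcne4 and Kcns3 (mouse).

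Genes named in each comparison were the 8 largest called rises and falls among those at 5 CPM or more in a group, and a panel of 30 genes. Some genes that this rule or the marker list names are not reported here. Others were named after their values were seen. The members, the panel and the lists of markers and channel partners were chosen with earlier results of these data known. Depth, 10817795 to 52458228 counts, sets the precision of low genes, and intervals and floors cover counting error only. Alternatives were the replicate block, no filter, a filter of 10 counts in 2 libraries, DESeq2 size factors, library totals, the DESeq2 1.42.0 test, only the groups compared and each library left out. Promoter sequences are RefSeq windows on GRCh38.p14, which is not the build of the counts, and were matched by symbol for 75 of 109 human members.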

Additional observations from a re-analysis of the deposited data

Results flagged for a closer look

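The channel genes below were called in opposite directions in 2 pairs of groups, with every library of each higher group above every library of its counterpart. The pairs lie in different tables, so the difference between them was not tested. Values are log2 fold changes ± SE. In mouse, Kcnma1 met the member rule through RPP-A alone, and Kcnh1 and Kcnk1 through RPP alone, so the rule favoured their directions.

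CACNA1A was -1.18 ± 0.07 in PD-L1 high minus PD-L1 low and -2.599 ± 0.09 in HLA high minus HLA low, and Cacna1a was 0.97 ± 0.21 in RPP-A minus RPP. CACNB3 was -0.70 ± 0.07 with PD-L1 sorting and -0.79 ± 0.08 in the HLA sort, and Cacnb3 was 1.01 ± 0.13 in mouse. Both encode parts of presynaptic calcium channels, a pore and a beta subunit. CACNA2D1 was 0.23 ± 0.06 with PD-L1 sorting, -0.21 ± 0.06 in the HLA sort and -1.08 ± 0.15 in mouse. CACNA2D3 was -3.25 ± 0.21 with PD-L1 sorting and 5.004 ± 0.23 in the HLA sort.

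KCNH1 was 0.52 ± 0.12 with PD-L1 sorting and 1.56 ± 0.13 in the HLA sort, and Kcnh1 was -3.74 ± 0.63 in mouse. KCNK1 was 3.38 ± 0.19 with PD-L1 sorting and 2.99 ± 0.10 in the HLA sort, and Kcnk1 was -7.91 ± 0.27 in mouse. KCNMA1 was -1.34 ± 0.07 with PD-L1 sorting and 0.73 ± 0.08 in the HLA sort, and Kcnma1 was 6.37 ± 0.30 in mouse. KCNMB4 was 0.62 ± 0.10 in the HLA sort, and Kcnmb4 was -1.32 ± 0.14 in mouse. SCN9A was -1.10 ± 0.07 with PD-L1 sorting and 1.23 ± 0.07 in the HLA sort, and Scn9a was -3.36 ± 0.23 in mouse.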

How the results depend on the processing

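All counts of called genes, 219 under the alternatives, stayed within 1.5 times their values. Of 232 values of named genes 217 kept their direction and their side of the threshold under every alternative, libraries left out included, and none reversed. Counted per value and alternative, 2787 kept both, 15 gained a call and 17 lost one. With 1 library left out, channel genes called higher and lower ran over 26 to 29 and 40 to 45 in H69M minus H69, 14 to 17 and 66 to 67 with PD-L1 sorting, 21 to 23 and 53 to 59 in PD-L1 high minus H69, 51 to 54 and 29 to 31 in PD-L1 low minus H69, 22 to 22 and 61 to 64 in the HLA sort, and 10 to 14 and 71 to 72 in RPP-A minus RPP. With all libraries the PD-L1 sort gave 18 higher and 64 lower, outside its ranges. Leaving out any 1 library there gave fewer higher and more lower. Without TMM, library totals shifted the median of all genes by -0.14 with PD-L1 sorting, by -0.15 in HLA high minus HLA low and -0.36 in mouse, where 3964 genes were then called higher and 7290 lower, against 5274 and 5701 with TMM. Only library totals ended the CACNA2D1 call in the PD-L1 sort among the alternatives that kept all libraries (0.09, adjusted p = 0.141 by edgeR). The KCNJ6 call of PD-L1 low minus H69 was lost with only the groups compared (adjusted p = 0.0569) and by the DESeq2 test (adjusted p = 0.0635), and the cause was not tested. Depth limits what can be said of genes near 0 in a group.

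The labels number the replicates alike. Deviations of same-numbered libraries from their group means correlated at -0.32 to 0.228 in the H69 table and 0.0732 in the H69EZ table. With so few libraries a group, these correlations cannot decide whether the numbers pair the samples. With the replicate block, 28 channel genes were higher and 43 lower in H69M minus H69, 17 and 64 with PD-L1 sorting, 22 and 54 in PD-L1 high minus H69, 52 and 29 in PD-L1 low minus H69, and 22 and 63 in the HLA sort. The mouse libraries could not be fitted with such a block, because mouse column names and label numbers could not be matched.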

Other observations

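Partners of the channels that the text above does not name also moved, and higher or lower here means called by edgeR's quasi-likelihood test over all genes. The auxiliary proteins of the sodium leak channel, UNC79 and UNC80, were lower in all 3 pairs: UNC80 was at 7.64 ± 0.601 CPM in PD-L1 high, against 18.4 ± 1.86 CPM in PD-L1 low, 2.72 ± 0.168 CPM in HLA high, against 10.3 ± 0.756 CPM in HLA low, and Unc80 at 0.339 ± 0.183 CPM in RPP-A, against 90.2 ± 6.34 CPM in RPP. NALCN, the leak pore itself, was higher in the HLA sort too, at 0.688 ± 0.0955 CPM in HLA high, against 0.00988 ± 0.014 CPM in HLA low. RIMS4, a small vesicle-site scaffold, was lower at 14.9 ± 1.61 CPM in PD-L1 high, against 102 ± 6.75 CPM in PD-L1 low, 9.05 ± 0.742 CPM in HLA high, against 73.5 ± 0.616 CPM in HLA low, and Rims4 at 0.0643 ± 0.068 CPM in RPP-A, against 3.82 ± 0.747 CPM in RPP. Its exons overlap KCNK15 on the opposite strand. TPCN2, the other endosomal cation channel gene, was higher at 17.7 ± 1.06 CPM in PD-L1 high, against 9.37 ± 1.203 CPM in PD-L1 low, 8.89 ± 1.19 CPM in HLA high, against 3.77 ± 0.0861 CPM in HLA low, and Tpcn2 at 23.4 ± 3.002 CPM in RPP-A, against 6.15 ± 0.481 CPM in RPP. RRAD, a small GTPase that restrains calcium channels, was at 4.599 ± 0.113 CPM in PD-L1 high, against 0.0932 ± 0.0492 CPM in PD-L1 low and higher there, and Rrad at 25.5 ± 2.98 CPM in RPP-A, against 0.663 ± 0.486 CPM in RPP and higher. In the HLA sort its difference missed the threshold, at 0.318 ± 0.229 CPM in HLA high, against 0.284 ± 0.0735 CPM in HLA low. FGF13, an intracellular regulator of sodium channels, was at 15.4 ± 0.468 CPM in PD-L1 high, against 0.0792 ± 0.0733 CPM in PD-L1 low and higher, whereas Fgf13 was at 0.41 ± 0.162 CPM in RPP-A, against 41.4 ± 2.71 CPM in RPP and lower.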
